A study of Mus musculus with 6 samples.

Results

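The genes of cholesterol and fatty acid synthesis were followed in 6 tumours. The set was given as 29 mouse gene symbols and was matched to Entrez numbers. All 29 had a row in the deposited count table of 15295 genes, and all 29 passed the filter on low counts, which left 14498 genes. Of these, 18 encode enzymes that lead from acetyl-CoA to cholesterol (the sterol branch), 6 encode enzymes of fatty acid synthesis (the fatty acid branch) and 5 encode proteins that sense sterols or control both branches.

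NA13 is a cell line of mouse bladder cancer. Its tumours were grown in mice whose strain is labelled C57BL/6. The labels put 3 tumours in a control group with a scrambled shRNA and 3 in a group with an shRNA against Ddr2, a collagen receptor kinase. All 6 also received IgG. The age and sex of the mice, the vector and whether tumours of a group came from separate mice are not stated, so each p-value reflects only how far these samples scatter, and part of that scatter may be technical. RNA was taken from whole homogenised tumours, so tumour cells and host cells are mixed, and fewer cells of a type cannot be told apart from less RNA per cell.

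Cholesterol is built from acetyl-CoA through mevalonate, farnesyl diphosphate, squalene and lanosterol. Fatty acids are built from the same acetyl-CoA through malonyl-CoA, then elongated and desaturated. Transcription of both sets of enzymes is driven by the SREBP proteins. These are held in the endoplasmic reticulum with Scap and the Insig proteins while sterols are plentiful, and are carried to the Golgi and cut free when sterols run low. SREBP-2, from Srebf2, is known mainly for the sterol enzymes, and SREBP-1, from Srebf1, mainly for the fatty acid enzymes. Tumour cells often use both branches to supply membranes.

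Total counts ranged from 15560571 to 19522985 per library. Levels are given as CPM, the count scaled to library totals that carry TMM factors. Ddr2, the targeted gene, was at 6.42, 16.7 and 20.5 CPM in controls 1, 2 and 3, and at 4.84, 19.0 and 28.6 CPM in shDdr2-labelled libraries 1, 2 and 3. Its fitted level was therefore not lower in the group labelled shDdr2 (log2 fold change 0.27, SE 0.66). The 95% interval, from -1.27 to 1.81, also includes reductions. Ddr2 and the summed fibroblast markers were both lowest in the library labelled shDdr2 1 and highest in that labelled shDdr2 3. Tumour and host cells are mixed, so the level of Ddr2 in the tumour cells alone was not tested. Directions given here are between libraries as labelled. The library labelled shDdr2 1 stood apart on the first principal component (-85.2, against -16.3 to 45.7 in the other 5). Its summed fibroblast markers were the lowest, at 1226 CPM against 2355 to 9950 CPM in the others. Its summed markers of cornified keratinocytes were the highest, at 3875 CPM against 713 to 1241 CPM.

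Promoters are shown for 2 genes of each branch, because the branches moved apart between tumours and SREBP proteins are known to act together with NF-Y, which binds CCAAT, and Sp1, which binds GC boxes. RefSeq windows of 300 bases (250 before to 50 after the start) on GRCm38.p6 were matched for 23 of the 29 genes, giving 29 windows. The 250 bases before the start are printed 5′ to 3′ on the gene's strand, for Hmgcs1 (chr13:119690101-119690350, plus), Mvd (chr8:122443423-122443672, minus), Fasn (chr11:120824548-120824797, minus) and Acly (chr11:100528001-100528250, minus). Capitals mark matches, on either strand and merged where they touch, to TCACNCCAC (an SRE-type element), CACGTG (E-box), CCAAT and GGGCGG (GC box).
Hmgcs1: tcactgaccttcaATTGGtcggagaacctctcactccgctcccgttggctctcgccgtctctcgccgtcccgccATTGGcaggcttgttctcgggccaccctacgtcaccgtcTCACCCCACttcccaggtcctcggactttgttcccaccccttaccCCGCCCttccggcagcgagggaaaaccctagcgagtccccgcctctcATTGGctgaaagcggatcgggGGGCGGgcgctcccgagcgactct
Mvd: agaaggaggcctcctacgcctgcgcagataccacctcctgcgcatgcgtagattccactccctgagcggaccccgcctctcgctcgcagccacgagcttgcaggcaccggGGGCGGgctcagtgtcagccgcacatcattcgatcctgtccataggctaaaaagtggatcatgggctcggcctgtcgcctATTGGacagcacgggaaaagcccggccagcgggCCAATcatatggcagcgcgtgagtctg
Fasn: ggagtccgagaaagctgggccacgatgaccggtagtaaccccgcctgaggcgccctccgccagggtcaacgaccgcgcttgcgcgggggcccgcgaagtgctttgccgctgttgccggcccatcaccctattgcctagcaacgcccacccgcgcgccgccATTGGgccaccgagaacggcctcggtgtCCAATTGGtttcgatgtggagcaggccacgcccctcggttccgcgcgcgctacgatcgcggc
Acly: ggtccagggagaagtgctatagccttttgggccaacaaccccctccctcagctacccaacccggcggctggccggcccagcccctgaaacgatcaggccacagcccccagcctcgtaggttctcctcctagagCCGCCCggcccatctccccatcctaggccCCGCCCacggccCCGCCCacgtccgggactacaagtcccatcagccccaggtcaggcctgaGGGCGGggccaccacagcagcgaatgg
In these 250 bases Hmgcs1 holds 3 CCAAT, 2 GC box and 1 SRE-type match, and Mvd holds 2 CCAAT and 1 GC box match. Fasn holds 3 CCAAT matches and 0 GC boxes, and Acly 4 GC boxes and 0 CCAAT matches.

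Over the whole windows, CCAAT was present in 14 of 18 windows of the sterol branch (77.8%) and in 2 of 4 of the fatty acid branch, against 37.4% of 32544 promoters. The GC box was present in 15 of 18 sterol windows (83.3%), in 1 of 4 fatty acid windows (25.0%) and in 35.9% of all promoters. The E-box was in 3 of 18 sterol windows (16.7%), in 0 of 4 fatty acid windows and in 7.17% of all. The SRE-type letters were in 1 of 18 sterol windows, that of Hmgcs1, and in 1.24% of all. These matches describe letters in a short window only, and some genes have several windows. The 4 fatty acid windows are those of Acaca, Acly, Elovl6 and Fasn, and no window was matched for Scd1 or Scd2. Those of Acaca and Elovl6 held 0 matches, so the 2 printed are the only ones with any. The Acaca window starts at 84195188, inside the gene as placed by GENCODE M21 (84129672 to 84401651, plus strand). So few windows do not allow the branches to be compared.

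None of the 29 genes was called as different between the groups. With edgeR's quasi-likelihood test, 0 of 29 had an adjusted p under 0.05 (background 0% of 14498 genes) and 0 had an unadjusted p under 0.05 (background 1.44%, with 0.993% higher and 0.448% lower under the shDdr2 label). Values of the groups overlapped in all 29 genes, while 4.32% of all genes did not overlap, 2.21% higher and 2.11% lower. DESeq2, limma on voom weights and limma on the deposited log2 values also called 0 of the 29, with 0 at an unadjusted p under 0.05 in each. Over all genes DESeq2 called 40 (0.262%).

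The fitted log2 fold changes ran from -0.29 for Tm7sf2 to 0.33 for Scd1, and the smallest unadjusted p was 0.294, for Fdps. In the sterol branch 13 of 18 genes had a log2 fold change below 0, with a median of -0.15. The 5 regulatory genes were all below 0, with a median of -0.15. In the fatty acid branch 2 of 6 were below 0, with a median of 0.04. Over all genes tested 42.9% were below 0 and the median was 0.04. These counts are descriptions of groups whose values overlap in every gene.

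The narrowest 95% interval belonged to Dhcr7, the reductase of the last step, from -0.43 to 0.48 on the log2 scale. The widest belonged to Scd1, from -1.18 to 1.83. With 3 libraries per group, differences within a gene's interval were not excluded for that gene.

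**Figure D1:**
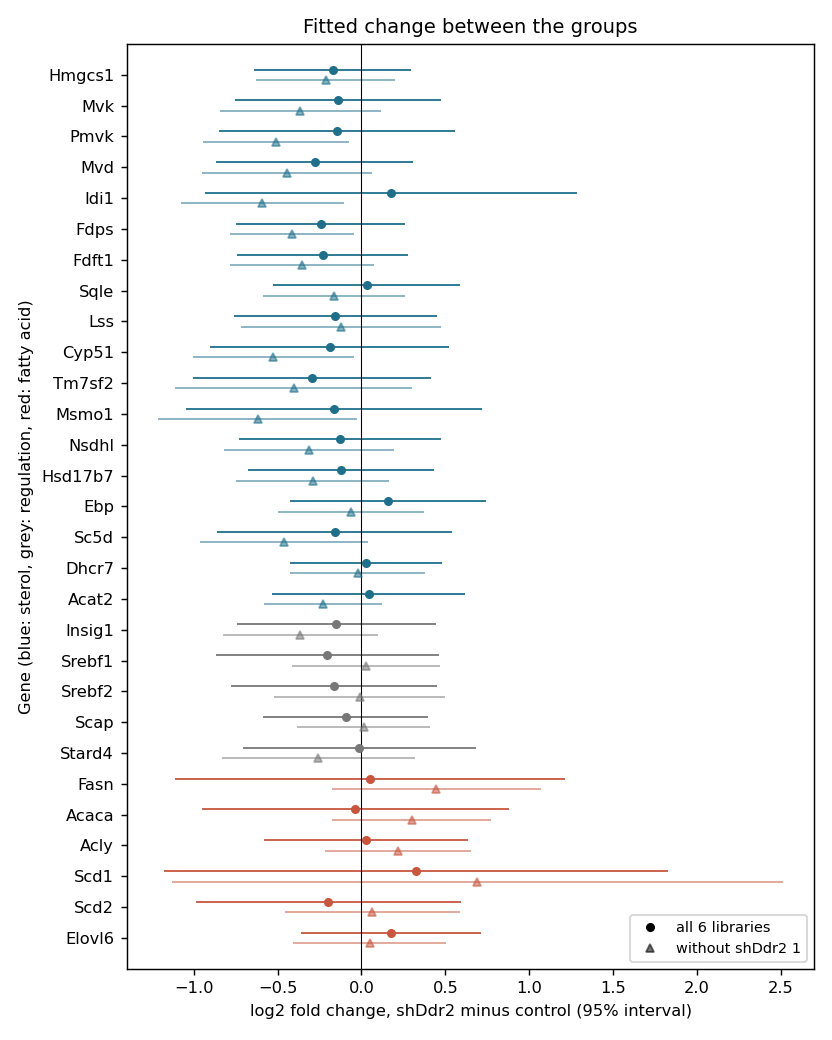
Fitted log2 fold change of each gene, shDdr2 minus control, with its 95% interval (x axis, log2 units), with all 6 libraries (circles) and without the library labelled shDdr2 1 (triangles), genes on the y axis coloured by role. With all libraries every interval includes 0. Without that library the sterol genes all lie below 0 and the fatty acid genes all above it.

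Levels between genes were compared per kilobase of the longest protein-coding transcript in GENCODE M21. Scd2, a desaturase that makes monounsaturated fatty acids, stood highest at 162 ± 33.0 CPM per kb in control tumours and 141 ± 51.7 under the shDdr2 label (SD, n = 3). Msmo1, which removes methyl groups from sterols, followed at 129 ± 38.5 and 115 ± 54.5, and then Hmgcs1, which makes HMG-CoA, at 93.2 ± 12.4 and 82.7 ± 5.33. Sqle, squalene epoxidase, was at 88.6 ± 13.8 and 90.5 ± 20.03. In control tumours each neighbour in this order differed by less than the larger SD of the pair.

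At the other end stood Acaca, which makes malonyl-CoA, at 3.50 ± 0.626 and 3.40 ± 1.63 CPM per kb. Stard4, a sterol carrier, was at 7.36 ± 2.16 and 7.30 ± 1.98, and Scd1, a second desaturase, at 7.85 ± 5.53 and 9.83 ± 5.48. Of the sterol branch, Tm7sf2 was at 8.73 ± 2.68 and 7.12 ± 1.07, and Lss at 8.74 ± 2.54 and 7.84 ± 1.16. Fasn, the synthase itself, was at 11.3 ± 3.89 and 11.6 ± 6.53. In group means the fatty acid branch thus held both the highest and the lowest of the 29 levels.

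Some of these counts are uncertain because sequence is shared or exons overlap. Of the stretches of 75 bases in a transcript, 80.4% of those of Fdps also occur in transcripts of predicted genes, as do 47.4% of those of Acaca and 29.1% of those of Idi1. Of those of Acat2, 40.7% occur in Acat3 or Tcp1. For Fdft1 the share is 25.4%, with Ctsb, whose exons overlap it on the opposite strand, and a predicted gene. Exons of Tm7sf2 overlap those of Vps51 by coordinates on the same strand (532 bp), although 0% of its stretches were found in transcripts of other genes. Scd1 and Scd2 had lower shares, with 3.24% and 1.80% of their stretches found in transcripts of other genes, each other's among them. How the authors assigned such reads is not given in the sources used here.

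Early sterol genes varied little between the groups. Acat2, the thiolase that joins acetyl-CoA units, was at 49.4, 50.2 and 53.6 CPM in controls 1, 2 and 3, and at 70.8, 45.2 and 41.8 CPM in shDdr2-labelled libraries 1, 2 and 3. Hmgcs1 was at 305, 292 and 372 CPM and at 302, 291 and 266 CPM. The control values of Acat2 lie inside the range of the other group, and those of Hmgcs1 overlap it. Their log2 fold changes were 0.04 (SE 0.25) and -0.17 (SE 0.20). The kinases Mvk and Pmvk, which phosphorylate mevalonate in turn, ran from 27.0 to 50.6 CPM and from 21.2 to 46.8 CPM over the 6 libraries. Both were highest in the library labelled shDdr2 1 and lowest in that labelled shDdr2 3. Mvd, which decarboxylates the product, was highest in control 1 (36.6 CPM) and lowest in the library labelled shDdr2 3 (19.5 CPM).

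Idi1, the isomerase that makes the second isoprene unit (Entrez 319554, chromosome 13, 8885501 to 8892451, plus strand, GRCm38), had the widest range of the branch. It was at 130 CPM (129.6), 84.4 and 122 CPM in controls 1, 2 and 3, and at 231, 78.3 and 70.4 CPM in shDdr2-labelled libraries 1, 2 and 3. Within the group labelled shDdr2 the first library was thus above every control and the other 2 were below every control. The fitted log2 fold change was 0.18 (SE 0.47). Fdps, which makes farnesyl diphosphate, was at 94.1, 101 and 113 CPM and at 106, 82.9 and 70.8 CPM, with a log2 fold change of -0.24 (SE 0.22). Its 3 lowest values include 2 of the group labelled shDdr2 and 1 control.

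Squalene genes followed the same order of libraries in part. Fdft1, squalene synthase, was at 110 CPM (109.5), 93.9 and 117 CPM and at 107, 95.4 and 71.4 CPM. Sqle was at 239, 209 and 285 CPM and at 313, 227 and 209 CPM. Only the library labelled shDdr2 3 lay below every control for Fdft1, and only that labelled shDdr2 1 lay above every control for Sqle. Lss, which closes the ring to lanosterol, was highest in control 3 at 54.4 CPM, with the other 5 libraries between 32.3 and 42.7 CPM.

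Late sterol genes showed the spread most clearly in Cyp51 and Msmo1. Cyp51, the lanosterol demethylase (Entrez 13121, chromosome 5, 4081145 to 4104746, minus strand), was at 261, 241 and 304 CPM in controls 1, 2 and 3, and at 334, 219 and 154 CPM in shDdr2-labelled libraries 1, 2 and 3. Msmo1 (Entrez 66234, chromosome 8, 64718139 to 64733792, minus strand) was at 345, 188 and 259 CPM and at 363, 184 and 160 CPM (159.8). In both, the highest and the lowest of the 6 values carried the label shDdr2. Log2 fold changes were -0.19 (SE 0.30) and -0.16 (SE 0.38).

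Nsdhl and Hsd17b7, which complete removal of the methyl groups, ran from 34.0 to 55.8 CPM and from 39.8 to 61.6 CPM. Hsd17b7 lies near the targeted gene, both on the minus strand of chromosome 1. Its end coordinate is 3066 bases from the start coordinate of Ddr2, which is the 3′ end of Ddr2. Exons of 3110045C21Rik overlap those of Ddr2 on the opposite strand and reach into the 250 bases before the start of Hsd17b7. Hsd17b7 was at 59.3, 44.9 and 60.5 CPM and at 61.6, 49.8 and 39.8 CPM, with overlapping groups and a log2 fold change of -0.12 (SE 0.24). Tm7sf2, a sterol reductase, ran from 9.07 to 17.6 CPM and Sc5d, a desaturase, from 76.0 to 140 CPM (139.7). Ebp, an isomerase, ran from 38.5 to 65.9 CPM. Dhcr7 varied least over the libraries, from 51.1 to 67.1 CPM, a 1.31-fold range against 3.28-fold for Idi1.

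The regulatory genes did not form a single pattern. Srebf1 (Entrez 20787, chromosome 11, 60199089 to 60222581, minus strand) was at 125, 139 and 181 CPM in controls 1, 2 and 3, and at 84.6, 150 CPM (149.6) and 152 CPM in shDdr2-labelled libraries 1, 2 and 3. Srebf2 was at 237, 290.4 and 381 CPM and at 208, 302 and 298 CPM. Scap, the escort of both, was at 75.5, 82.5 and 99.6 CPM and at 67.7, 81.0 and 92.7 CPM. All 3 were lowest in the library labelled shDdr2 1 and highest in control 3. Log2 fold changes were -0.20 (SE 0.28), -0.17 (SE 0.26) and -0.09 (SE 0.21).

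Insig1, which retains the complex and is itself an SREBP target, was at 43.6, 49.8 and 63.4 CPM and at 60.2, 43.2 and 37.9 CPM. Stard4 was at 27.5, 35.8 and 49.3 CPM and at 48.8, 32.3 and 30.4 CPM. Unlike the SREBP genes, both were near their highest value in the library labelled shDdr2 1. All 5 regulatory genes had their highest value in control 3, the highest library for 8.97% of all genes.

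Fatty acid genes varied more between tumours than sterol genes. The SD of log2 CPM over the 6 libraries had a median of 0.50 in the fatty acid branch and 0.29 in the sterol branch, against 0.38 over all genes tested. Fasn (Entrez 14104, chromosome 11, 120805846 to 120824547, minus strand) was at 93.4, 87.9 and 158 CPM in controls 1, 2 and 3, and at 42.1, 144 and 165 CPM in shDdr2-labelled libraries 1, 2 and 3. Acaca was at 28.9, 30.9 and 40.04 CPM and at 15.3, 45.7 and 36.1 CPM. Acly, which releases acetyl-CoA from citrate, was at 189, 177 and 241 CPM and at 147, 253 and 218 CPM. In each of these 3 genes the library labelled shDdr2 1 was the lowest of all, and the other 2 of its group lay inside or above the control range. Their log2 fold changes were 0.05 (SE 0.50), -0.04 (SE 0.39) and 0.03 (SE 0.26).

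The desaturases differed from each other. Scd1 (Entrez 20249, chromosome 19, 44394455 to 44407879, minus strand) was at 12.7, 35.2 and 65.9 CPM and at 19.9, 49.9 and 72.7 CPM, a 5.74-fold range. Scd2 (Entrez 20250, chromosome 19, 44293674 to 44306864, plus strand) was at 774, 780.4 and 1089 CPM and at 461, 1014 and 831 CPM. Control 1 was the lowest library for Scd1 but not for Scd2. Per kilobase, Scd2 exceeded Scd1 by 54.1-fold, 19.6-fold and 14.6-fold in controls 1, 2 and 3, and by 20.5-fold, 18.002-fold and 10.1-fold in shDdr2-labelled libraries 1, 2 and 3. Log2 fold changes were 0.33 (SE 0.64) and -0.20 (SE 0.34). Between libraries of the same number, Scd1 differed by 0.65, 0.50 and 0.14 log2 CPM, each time higher under the shDdr2 label. With the replicate number as a block its log2 fold change was 0.43, with an unadjusted p of 0.0817 and an adjusted p of 1.00 (edgeR). The labels do not say what the number marks. Of the 29 genes, Scd1 and Ebp were higher in all 3 such differences (8.55% of all genes), and Hmgcs1, Mvd, Sc5d and Scap lower in all 3 (8.13% of all genes). Elovl6, the elongase after the synthase, was at 169, 116 and 153 CPM and at 193, 163 and 139 CPM. It departed from the rest of its branch by having its highest value in the library labelled shDdr2 1.

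**Figure D2:**
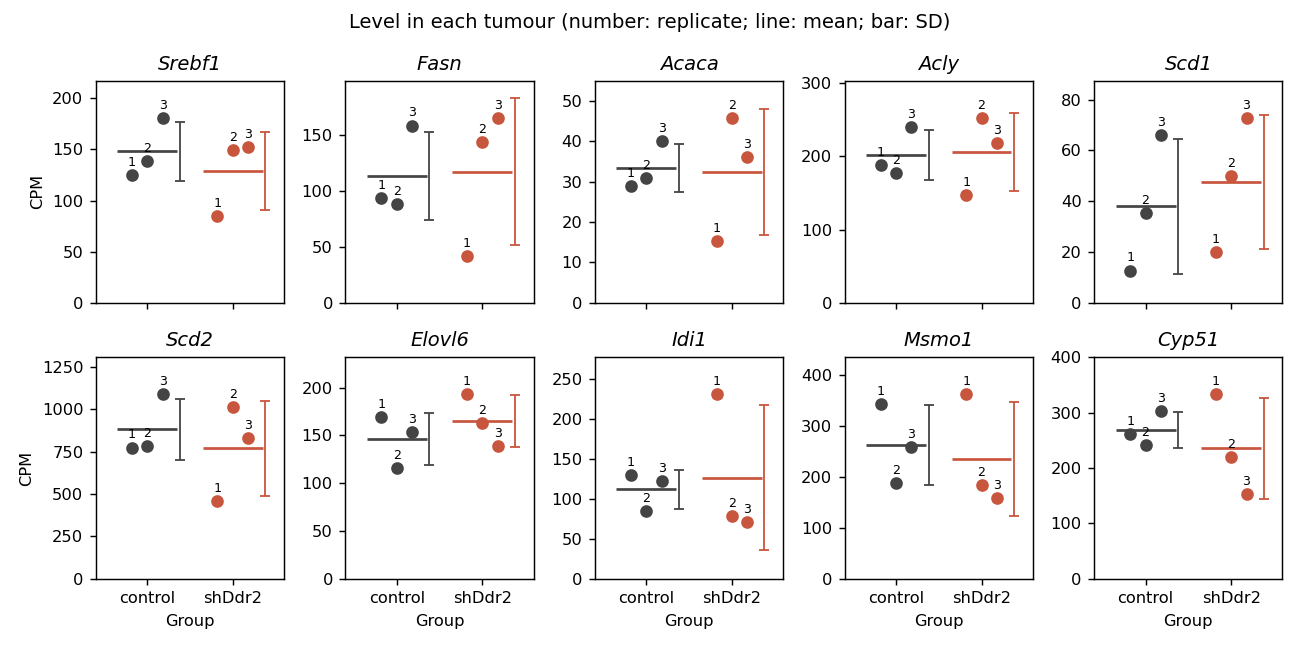
CPM (y axis, from 0) of Srebf1, the 6 fatty acid genes and 3 sterol genes in each tumour by group (x axis), with the replicate number, the group mean (line) and its SD (bar). The library labelled shDdr2 1 is lowest for Srebf1, Fasn, Acaca, Acly and Scd2 and highest for Elovl6, Idi1, Msmo1 and Cyp51.

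Between tumours the branches took different orders. Deviations of the sterol branch from its mean over libraries, as the average of its genes in log2 CPM, were 0.17, -0.11 and 0.16 in controls 1, 2 and 3, and 0.32, -0.13 and -0.40 in shDdr2-labelled libraries 1, 2 and 3. Those of the fatty acid branch were -0.29, -0.15 and 0.42 and then -0.68, 0.38 and 0.32. The library with the highest sterol branch thus had the lowest fatty acid branch, and the library with the lowest sterol branch had a fatty acid branch above its mean. Control 3 was above the mean in both branches and control 2 below it in both.

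The averages are made of these same genes, which were also counted singly. In the library labelled shDdr2 1, 16 of 18 sterol genes were above their own mean (48.0% of all genes were) and 1 of 6 fatty acid genes was. In that labelled shDdr2 3, 18 of 18 sterol genes were below their mean (49.2% of all genes were) and 5 of 6 fatty acid genes were above it. The lowest of the 6 libraries was that labelled shDdr2 3 for 14 of 18 sterol genes (22.1% of all genes) and that labelled shDdr2 1 for 4 of 6 fatty acid genes (34.6% of all genes). The highest was that labelled shDdr2 1 for 9 of 18 sterol genes (32.6% of all genes). The other 4 sterol genes were lowest in control 2 (2 genes, background 9.66%), control 3 (1 gene, 8.96%) or the library labelled shDdr2 2 (1 gene, 10.4%). The other 9 were highest in control 1 (4 genes, 14.5%) or control 3 (5 genes, 8.97%). The other 2 fatty acid genes were Scd1, lowest in control 1 (14.4%), and Elovl6, lowest in control 2. Fatty acid genes were highest in the libraries labelled shDdr2 2 (2 genes, 13.0%), shDdr2 3 (2 genes, 20.3%) and shDdr2 1 (1 gene) and in control 3 (1 gene). Control 2, the highest library for 10.6% of all genes, was highest for none of the 29. These are single tumours, so the shares describe libraries and not the shRNA.

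**Figure D3:**
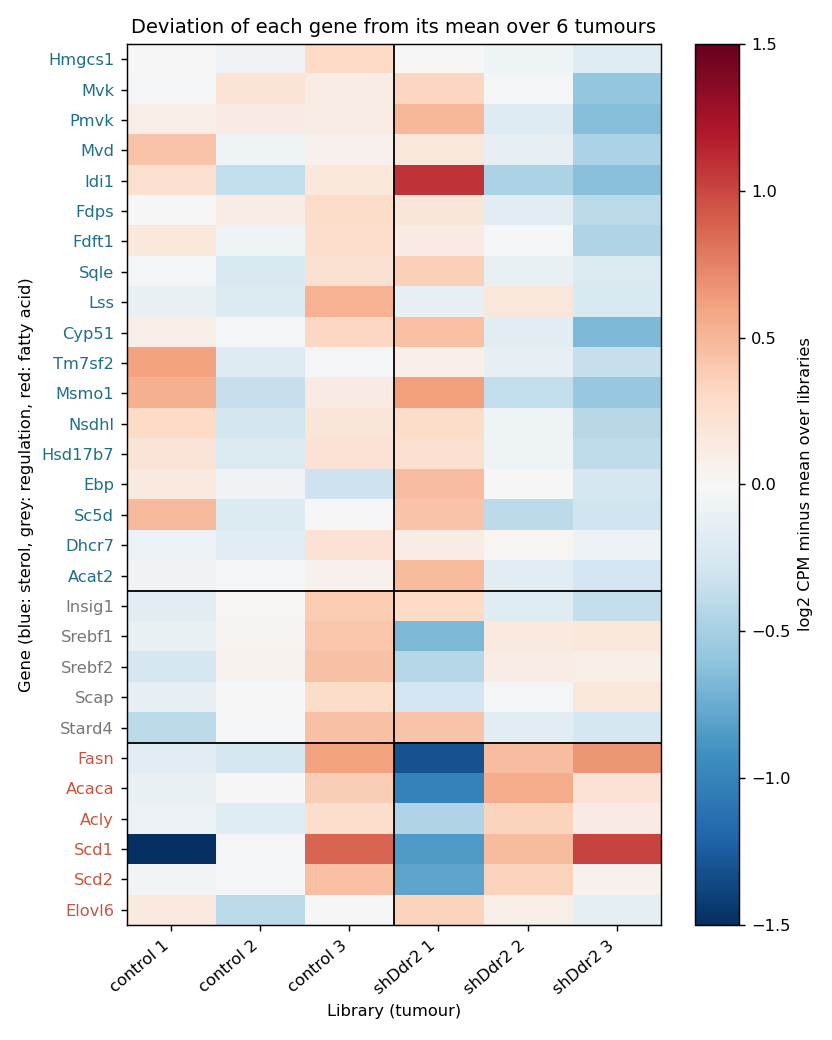
Deviation of each of the 29 genes (y axis) in each library (x axis) from its own mean over the 6 libraries, in log2 CPM (colour). Sterol genes are mostly above their mean in the library labelled shDdr2 1 and all below it in that labelled shDdr2 3, while Fasn, Acaca, Acly, Scd1 and Scd2 are below their mean in the former.

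Set against each other, the sterol branch minus the fatty acid branch was -0.28, -0.70 and -1.01 log2 CPM in controls 1, 2 and 3, and 0.26, -1.25 and -1.46 in shDdr2-labelled libraries 1, 2 and 3. The mean was -0.66 ± 0.36 for controls and -0.81 ± 0.93 under the shDdr2 label (SD, n = 3); the difference of -0.15 is smaller than either SD. Leaving out the library labelled shDdr2 1 gave -0.69. Leaving out shDdr2 2, shDdr2 3 or control 1 instead turned the sign, to 0.07, 0.17 and 0.04. As a pair of single genes, Sqle per kilobase exceeded Fasn by 9.33-fold, 8.67-fold and 6.56-fold in control 1 to 3. The corresponding ratios were 27.1, 5.74 and 4.63 in shDdr2-labelled libraries 1, 2 and 3, so the group labelled shDdr2 held the highest ratio and the 2 lowest.

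**Figure D4:**
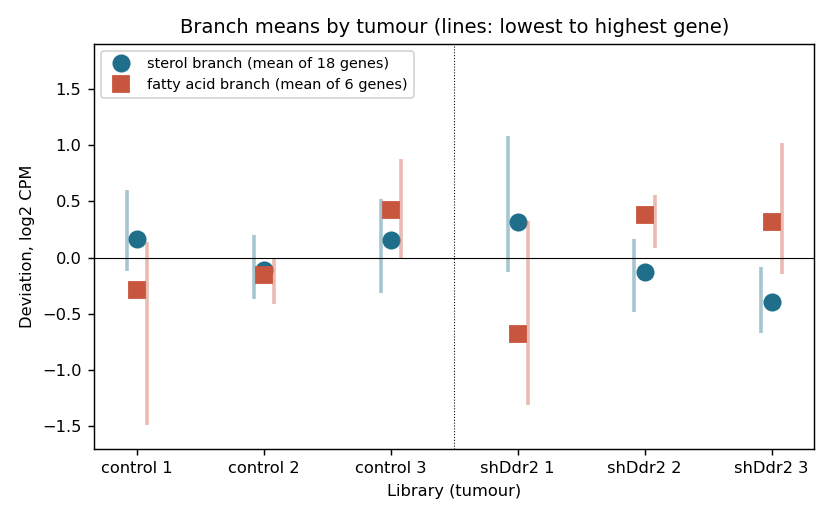
Mean deviation of the 18 sterol genes (circles) and the 6 fatty acid genes (squares) in each library (x axis) from the mean over 6 libraries, in log2 CPM (y axis), with lines from the lowest to the highest gene. The symbols lie furthest apart, and in opposite order, in the libraries labelled shDdr2 1 and shDdr2 3.

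Without the library labelled shDdr2 1 the branches separated between the groups in direction but not by the test. All 18 sterol genes then had a log2 fold change below 0 (50.8% of 14696 genes did), with a median of -0.36, and all 6 fatty acid genes one above 0 (49.2%), with a median of 0.26. Over all genes the median was -0.01. No gene of the 29 passed edgeR's adjusted threshold (0% of all genes did), with a lowest adjusted p of 0.705. At an unadjusted p under 0.05 there were 5 sterol genes, all lower, and 0 fatty acid genes (6.95% of all genes, 3.61% lower and 3.35% higher). The 5 were Idi1 at -0.59 (SE 0.21), Pmvk at -0.51 (SE 0.19), Fdps at -0.42 (SE 0.16), Cyp51 at -0.53 (SE 0.21) and Msmo1 at -0.62 (SE 0.26). Values of the groups did not overlap in 8 of 18 sterol genes, all lower (12.8% of all genes), and in 0 fatty acid genes (12.2% higher). Without the library labelled shDdr2 3 instead, 7 of 18 sterol genes were below 0, with a median of 0.03, so the direction of the sterol median turned on single tumours. In the fatty acid branch the count below 0 was 2 with all libraries, 0 with that labelled shDdr2 1 left out, and 5 with either control 1 or that labelled shDdr2 3 left out.

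Markers of other cell types moved with the same libraries. The fibroblast list of 8 genes deviated by -0.47, 0.20 and 0.45 log2 CPM in controls 1, 2 and 3, and by -1.24, -0.16 and 1.22 in shDdr2-labelled libraries 1, 2 and 3. Its summed level was 2355 to 5041 CPM in control tumours and 1226 to 9950 CPM in those labelled shDdr2. The list of cornified keratinocytes, with 8 of 9 genes tested, deviated by 1.46 in the library labelled shDdr2 1 and by -0.45 to 0.11 in the others. Its sums were 713 to 1241 CPM and 802 to 3875 CPM. Urothelial and epithelial genes, with 9 of 10 tested, deviated by -1.18 in that library (median gene -0.80) and by 0.06 to 0.68 in the others. They summed to 6687 to 7171 CPM and 6479 to 7029 CPM, mostly from Krt5, at 4939 to 5954 CPM. Groups did not overlap in 3 of the 9, all lower under the shDdr2 label (2.11% of all genes). The part of cell composition in the values of either branch was not tested.

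Fat-storing cells make much Scd1 and Fasn, so their markers were read as well. Of 9 adipocyte markers 4 were tested, while Adipoq, Plin1, Lep, Cidec and Retn had no matched row among the 15295 genes. The 4 summed to 44.2 to 57.4 CPM in control tumours and 39.6 to 78.1 CPM in those labelled shDdr2, with the highest sum in the library labelled shDdr2 1, where Fasn was lowest. All 4 had a log2 fold change above 0 (8282 of 14498 tested genes did), with a median of 0.62. Groups did not overlap in 1 of the 4, Lpl, which was higher (2.21% of all genes). Of 9 sebocyte markers 5 were tested, and they summed to 125 to 131 CPM and 76.8 to 121 CPM. Most of that sum came from Acsbg1, an acyl-CoA synthetase, at 107 to 115 CPM in control tumours and the library labelled shDdr2 1, and 70.8 and 85.7 CPM in the other 2. Groups did not overlap in 2 of the 5 sebocyte markers, Acsbg1 and Fa2h, both lower (2.11% of all genes). Proliferation genes summed to 714 to 1123 CPM and 965 to 1367 CPM.

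The wider pathway gave no edgeR call either. Of 61 tested genes in 7 lists around the 2 branches, 0 passed the adjusted threshold and 1 had an unadjusted p under 0.05, which is 1 of 61 against the background of 1.44%. Groups did not overlap in 3 of the 61, all higher (2.21% of all genes). That gene was Pdk4, a kinase that restrains pyruvate dehydrogenase, in the list of fatty acid oxidation. It was at 0.324, 0.777 and 0.566 CPM in controls 1, 2 and 3, and at 6.86, 38.1 and 6.89 CPM in shDdr2-labelled libraries 1, 2 and 3 (adjusted p = 1.00 with edgeR). The other 9 tested genes of that list had unadjusted p of at least 0.461. Skeletal muscle markers, with 8 of 8 tested, summed to 9.17 to 89.1 CPM and to 378 to 2884 CPM, and their part in the Pdk4 values was not tested.

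In the side branch from farnesyl diphosphate to prenyl groups, coenzyme Q and dolichol, 8 of 9 genes were above 0 (8282 of 14498 tested genes were). Their median log2 fold change was 0.11, and the smallest unadjusted p was 0.278 (edgeR). In the sterol branch 5 of 18 were above 0. By library both lists were highest in that labelled shDdr2 1, at deviations of 0.26 (side branch) and 0.32 (sterol). Both were lowest in that labelled shDdr2 3, at -0.15 and -0.40. Dhdds, which makes the dolichol chain, was at 29.1, 29.3 and 30.2 CPM and at 34.9, 32.8 and 30.9 CPM, without overlap (log2 fold change 0.15, SE 0.18). Pdss1, which makes the tail of coenzyme Q, was at 7.28, 11.9 and 8.05 CPM and at 18.9, 10.04 and 8.50 CPM. Only the library labelled shDdr2 1 was above the controls for Pdss1.

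Genes of sterol storage, transport and LXR response were below 0 in 8 of 13, with a median of -0.02. Lipa, the lysosomal lipase, was at 28.6, 27.5 and 26.0 CPM and at 29.7, 31.1 and 43.6 CPM, without overlap (log2 fold change 0.35, SE 0.22). Mylip, an LXR target that degrades lipoprotein receptors, was at 68.0, 65.2 and 59.8 CPM and at 34.3, 58.7 and 64.5 CPM, lowest in the library labelled shDdr2 1. The 5 genes of SREBP processing had a median of -0.0039 and a median SD of 0.12 log2 CPM, below the 0.38 of all genes.

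As list averages, further fatty acid genes did not follow Fasn closely, while single genes went both ways. Those of elongation, desaturation and activation were above 0 in 7 of 12 tested, with a median of 0.02, and Acsl3, which activates fatty acids, was at 245, 168 and 195 CPM and at 210 CPM (209.7), 160 CPM (159.99) and 162 CPM. The list deviated by -0.17 in the library labelled shDdr2 1 and by -0.09 to 0.10 in the others, against -0.68 for the fatty acid branch in that library. Single genes of the list ran from -1.45 to 1.27 there. Glycerolipid genes were above 0 in 3 of 6, with a median of 0.07. Genes of lipogenic carbon and NADPH supply were above 0 in 2 of 6, with a median of -0.05. Gpam, a glycerolipid gene, was at 13.1, 14.8 and 17.3 CPM and at 10.3, 24.3 and 17.8 CPM. G6pdx, of the NADPH list, was at 118, 89.7 and 108 CPM and at 81.6, 129 and 122 CPM. Like Fasn, both were lowest in the library labelled shDdr2 1. Agpat2, another glycerolipid gene, was highest in that library, at 32.4 CPM. Me1, malic enzyme, was at 74.4, 50.4 and 63.8 CPM and at 43.8, 61.8 and 47.4 CPM (log2 fold change -0.30, SE 0.23), lowest in the library labelled shDdr2 1.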

How the data were processed

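RNA of 6 whole tumours, 3 per group, was selected with poly-T and sequenced from both ends (150 bp), per the labels' protocols. Tools listed in the submitters' processing notes are Bowtie2 2.1.0, RSEM 1.2.31 and limma, with the build GRCm38.p5 and no roles. The authors deposited counts as whole numbers by Entrez number. They may be rounded estimates, since the lowest is 1 and 17 of the largest values carry only 3 significant digits. A second deposited table holds log2 values: each count was multiplied by 1 factor per library, 1 was added and the log2 taken.

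Symbols came from RefSeq (GRCm38.p6) by Entrez number, with 14876 matched and 419 not. Coordinates and transcript lengths are those of GENCODE M21. Genes passing filterByExpr were scaled by TMM. The test was edgeR's robust quasi-likelihood F test (edgeR 4.0.16, R 4.3.3). Its two-sided p-values were adjusted over all genes tested (Benjamini-Hochberg, threshold 0.05). Branch averages use log2 CPM with a prior count of 2. The common biological coefficient of variation was 35.3%, and the 95% interval reached 0.755 log2 units to either side in the median gene. The test was tried on simulated counts. DESeq2 1.42.0, limma 3.58.1, other scalings and filters, a replicate block and leaving out each library were alternatives. Genes named are the 29, up to 3 per other pathway list by p, markers beside a result, and Ddr2. Members and lists were chosen with earlier results of these data known. Same-numbered libraries deviated together (r of 0.299, 0.267 and 0.253 for numbers 1 to 3 in the titles), so the numbers were treated as pairs in the block. The labels do not say that a number marks a shared animal, litter or batch. Of the pairs with unlike numbers, control 3 with shDdr2 2 reached r = 0.254 and the others lay between -0.381 and -0.0859.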

Additional observations from a re-analysis of the deposited data

How the results depend on the processing

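Of the 29 genes, 0 were called by an adjusted p under each of 15 alternatives, and the 0 calls over all genes became 34 higher and 6 lower with DESeq2 only. With the replicate block, 0 of the 29 and 0 of all genes were called, so the pairing changed no call; 262 genes had an unadjusted p under 0.05, against 209. That count was 307 with DESeq2, 138 with at least 10 counts in every library, 1022 when the library labelled shDdr2 1 was left out and 395 when shDdr2 3 was. The block leaves the difference between the branches at -0.15 by design, because each number holds 1 library per group. That difference was 0.0125 with medians in place of means, and -0.69 to 0.17 when 1 library was left out. Without Scd1 and Scd2, whose transcripts share sequence (chosen after seeing the data), it was -0.11. The median of the fatty acid branch, 0.04, was -0.06 on voom weights, on the deposited log2 values and with the block, and -0.14 to 0.26 with a library left out; that of the sterol branch was then -0.36 to 0.03.

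Of 435 values of single genes, 384 kept their direction and 51 reversed, 39 of these with a library left out. Values are in log2 units. With RLE factors Stard4 was at 0.00086. With library totals only, Sqle was at -0.0235, Dhcr7 at -0.0126 and Acat2 at -0.0202. On voom weights Idi1 was at -0.0236, Acat2 at -0.0022, Fasn at -0.12 and Acly at -0.0022. On the deposited log2 values Idi1 was at -0.0261 and Fasn at -0.13, and with the replicate block -0.0230 and -0.12. With a library left out the ranges were -0.36 to 0.0657 for Mvk, -0.51 to 0.0805 for Pmvk, -0.59 to 0.46 for Idi1, -0.16 to 0.15 for Sqle, -0.29 to 0.11 for Lss, -0.53 to 0.0397 for Cyp51, -0.62 to 0.0949 for Msmo1, -0.31 to 0.0250 for Nsdhl, -0.29 to 0.0192 for Hsd17b7, -0.0615 to 0.31 for Ebp, -0.46 to 0.0819 for Sc5d, -0.0536 to 0.15 for Dhcr7, -0.23 to 0.18 for Acat2, -0.36 to 0.0121 for Insig1, -0.34 to 0.0241 for Srebf1, -0.30 to 0.0325 for Srebf2, -0.21 to 0.0249 for Scap, -0.26 to 0.23 for Stard4, -0.28 to 0.45 for Fasn, -0.37 to 0.30 for Acaca, -0.15 to 0.22 for Acly, -0.12 to 0.99 for Scd1 and -0.45 to 0.0652 for Scd2. The cause was not tested. The lowest count of any of the 29 genes in a library was 158.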
